A study of Pan troglodytes with 38 samples.

Results

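S100B, SOX10, CDH19, L1CAM and NGFR are genes used to recognise Schwann cells, and their RNA was examined here in the hearts of 38 chimpanzees. The members were chosen by symbol from the table of read counts per annotated chimpanzee gene, in which all 5 have 1 row each among 31373 rows. All 5 also passed the filter on low counts, which 15392 genes passed. The tissue was frozen post-mortem heart of Pan troglodytes with 1 library per animal, and the labels define a single group and name no treatment. The sample table of the study separates 17 animals whose RNA was extracted in 2016 from 21 whose RNA was extracted in 2018. It lists 5 extraction dates, 1 of them in 2018, and no fit separated the dates within 2016. By that table all 17 libraries of 2016 were published libraries sequenced again, so extraction year and library origin cannot be told apart. The study's methods differ here and name 10 earlier libraries as sequenced again. There were 16 males and 22 females, and 21 animals came from the Yerkes center. Ages are given for 34 animals and run from 10 to 57 years. The same table notes 7 animals as positive for hepatitis B or C virus, all extracted in 2018 and none from Yerkes. It also notes 1 animal as exposed to HIV. By the study's methods some of the animals were close relatives, and relatedness was not part of any fit, so the 38 hearts were not fully independent.

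Schwann cells are the glia of peripheral nerves. In the heart they accompany the autonomic nerve fibres, most of which are thin and unmyelinated, so that a single non-myelinating Schwann cell holds several axons. The lineage comes from the neural crest and depends on the transcription factor SOX10, which is kept in mature Schwann cells, and on the neuregulin receptor ERBB3. S100B is a calcium-binding protein abundant in glia and also made by fat cells and cartilage. CDH19 is a cadherin of Schwann cell precursors and their descendants. L1CAM is an adhesion molecule of axons and non-myelinating Schwann cells, and NGFR is the p75 neurotrophin receptor, which is also made by perivascular and connective tissue cells. In whole tissue, fewer cells of a type and less RNA per cell cannot be told apart.

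Levels are given in CPM, the reads of a gene scaled to the same library total in every heart, after adjustment of the library size by the trimmed mean of M values (TMM). They were not compared between genes, because gene lengths were not used. Total counts per library ran from 43892814 to 132478050, and the share of counts from the 13 mitochondrial genes ran from 17.2% to 60.1%. This share was over 45% in 6 animals (495, 4X0339, 529, 537, 558 and Little_R), all extracted in 2018. The study describes Little_R and 537 as outlier samples of the same technical batch, and fits without them are given below. The tissue was checked against its label: all 8 cardiomyocyte genes examined passed the filter, and MYH7, the slow myosin heavy chain of ventricular muscle, had a median of 19179 CPM. It was lowest, at 344 CPM, in the animal 549, which had the highest levels of the atrial genes MYL4, MYL7 and NPPA. In Little_R the 8 cardiomyocyte genes summed to 5723 CPM, the lowest of all hearts, and 8 fibroblast genes to 6192 CPM, the highest. Both animals are named again below because they hold extreme values of the members.

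SOX10, the lineage factor, had low levels and low counts. Among the animals of 2016 it ran from 0.551 CPM in 4x0025 through a median of 1.78 CPM to 6.84 CPM in 549. Among those of 2018 it ran from 0.689 CPM in 4X0212 through 2.46 CPM to 6.79 CPM in 537. The ranges overlapped almost completely, and the other animals above 5 CPM were 529, 558 and 4X0267, all of 2018. Of these hearts, 537, 529 and 558 are among the 6 with over 45% mitochondrial counts, and 549 and 4X0267 are not. In 4X0339, another of the 6, SOX10 had 1.88 CPM. Between 37 and 613 reads lay behind these values, so counting error alone was 16.4% at the lowest count and 8.30% at the median count.

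L1CAM ran from 2.84 CPM in 456 through 5.03 CPM to 10.8 CPM in 549 among the animals of 2016. Among those of 2018 it ran from 2.69 CPM in 724 through 6.29 CPM to 20.1 CPM in 529. The 3 highest values of all 38 were 20.1, 17.9 and 16.3 CPM in 529, 537 and 558, which are 3 of the 6 animals with over 45% mitochondrial counts. The same share was high in Little_R and 495, where L1CAM had 10.5 and 7.94 CPM, ranks 6 and 11 from the highest. It was also high in 4X0339, where L1CAM was among the lowest, at 2.98 CPM. Fits that include this share are given with the slopes.

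NGFR ran from 4.05 CPM in 456 through 7.16 CPM to 32.3 CPM in 570 in 2016, and from 2.78 CPM in 4X0550 through 6.95 CPM to 52.5 CPM in Little_R in 2018. A few hearts stood far above the rest in both years, and the medians of the years were close. In 2018 the highest after Little_R were 558 at 24.5 CPM and 537 at 23.3 CPM. Little_R, 558 and 537 all had over 45% mitochondrial counts. The share was 23.9% in 570, and 4X0339, with a share of 51.7%, had 5.76 CPM of NGFR. CDH19 ran from 8.004 CPM in 4x523 through 16.98 CPM to 33.2 CPM in 623 in 2016. In 2018 it ran from 5.74 CPM in 4X0212 through 18.2 CPM to 57.7 CPM in 495. The next highest values were 54.9 CPM in 537 and 44.3 CPM in 558. The hearts 495, 537 and 558 are all among the 6 with over 45% mitochondrial counts. In 4X0339, another of the 6, CDH19 had 8.11 CPM.

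S100B spread most widely. In 2016 it ran from 8.92 CPM in 4x0025 through 98.7 CPM to 239 CPM in 623. In 2018 it ran from 4.26 CPM in Little_R through 61.9 CPM to 253 CPM in 554, so the highest heart had 59.4 times the level of the lowest. The lowest value rested on 118 reads, for which the counting error is 9.21%. The hearts with little S100B differed in the other members. The heart 529 had 4.67 CPM of S100B together with the highest L1CAM, and 549 had 13.4 CPM together with the highest SOX10. In contrast, 4x0025, with 8.92 CPM of S100B, had the lowest SOX10 of all.

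**Figure D1:**
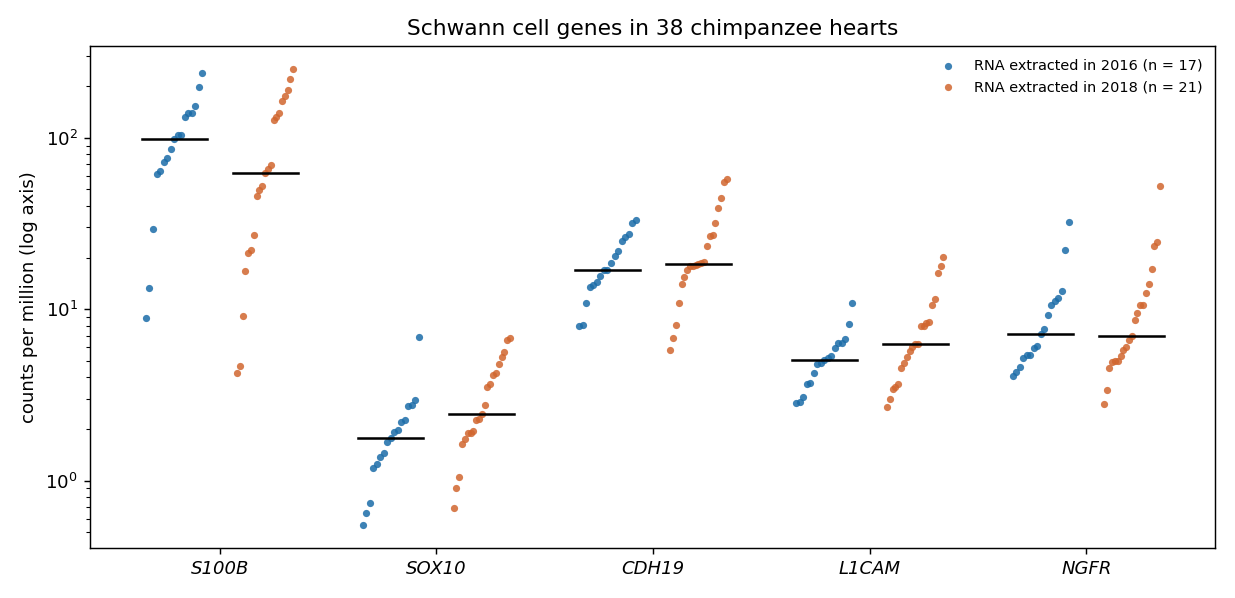
Level of each of the 5 genes in each heart in CPM on a log axis, with 1 point per animal in rising order, blue for the 17 animals extracted in 2016 and orange for the 21 extracted in 2018, and a black line at the median. The years overlap for every gene, and S100B runs from 4.26 to 253 CPM.

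None of the members was called between extraction years. Differences were tested for all genes with edgeR's quasi-likelihood test, with sex in the fit and Benjamini-Hochberg adjustment over 15392 genes, of which 2433 (15.8%) were called at an adjusted p under 0.05, 11.1% higher in 2018 and 4.68% lower. The estimate for L1CAM was a log2 difference of 0.57 ± 0.23 (SE), higher in 2018 (95% interval 0.12 to 1.02, edgeR adjusted p = 0.0854). That of SOX10 was 0.65 ± 0.29 (0.08 to 1.21, edgeR adjusted p = 0.121). CDH19 had 0.29 ± 0.24, NGFR 0.21 ± 0.33 and S100B −0.28 ± 0.44, the only estimate below 0. The intervals leave room for differences in either direction for these 3 genes. The call of L1CAM changed with the RNA integrity number (RIN) in the fit, to an edgeR adjusted p of 0.0287. With the mitochondrial share in the fit its estimate was 0.23 (edgeR adjusted p = 0.731), that of SOX10 0.38 and that of CDH19 0.022. The estimate of NGFR turned to −0.16 without 537 and Little_R and to −0.54 with the mitochondrial share in the fit. With 1 animal left out, L1CAM was called without 4X0339, 4X0550, 549 or 724 (edgeR adjusted p from 0.0419 to 0.0491), SOX10 was called without 549 (0.0216), and NGFR had −0.03 without Little_R. Among the other Schwann lineage genes 1 of 13 was called, higher in 2018, and 0 of 10 myelin genes were called. Over the same contrast 6 of 7 macrophage genes were lower in 2018 (beside 4.68% of all genes).

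RNA quality was examined with the RIN as a slope, since low values mark degraded RNA. No gene of 15392 passed the adjusted threshold in edgeR (0%), although 2171 had an unadjusted p under 0.05, and DESeq2 called 184. All 5 members had estimates above 0 per RIN unit, from 0.18 ± 0.094 for SOX10 to 0.25 ± 0.13 for S100B, against a median of 0.0043 over all genes, of which 52.4% were above 0. The 8 fibroblast genes and the 10 pericyte and smooth muscle genes also all had estimates above 0, with medians of 0.25 and 0.045, and none of the 9 fat cell or 6 lymphocyte genes had. The estimate for S100B ran from 0.00039 within 2016 to 0.61 in the Yerkes animals, and was called in neither. L1CAM had a slope of 0.23 ± 0.069 with an unadjusted edgeR p of 0.0017 and an adjusted p of 0.138, which was 0.0489 with DESeq2.

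To ask which genes varied together with each member among the 38 hearts, every gene was fitted in edgeR on the level of that member, log2(CPM + 0.5), with sex and extraction year in the fit. A slope is the log2 change of a gene for 1 log2 unit of the member. All points share their library, so the values of 2 genes in a heart also share its scaling and composition, and counting error of the predictor lowers slopes on a gene with few reads such as SOX10.

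L1CAM rose with SOX10 and was the only member called on it. In the hearts where SOX10 was lowest, 4x0025, MD_And and 4X0212, L1CAM had 3.06, 3.72 and 5.72 CPM. Where SOX10 was highest, 549, 537 and 529, it had 10.8, 17.9 and 20.1 CPM. Its slope was 0.76 ± 0.097 (SE, edgeR adjusted p = 8.28e-06, n = 38), the fourth smallest p of 15391 genes, of which 647 (4.2%) were called, 378 upward (2.46%) and 269 downward (1.75%). It was called in all 38 fits that left out 1 animal, with slopes from 0.72 to 0.87. It was also called within each extraction year, at 0.84 ± 0.15 in 2018 (adjusted p = 0.0218) and 0.63 ± 0.10 in 2016 (adjusted p = 0.0209). L1CAM was called in all 11 alternative settings, among them the mitochondrial share in the fit, with slopes from 0.60 to 0.98.

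NGFR and CDH19 had positive slopes that missed the threshold. For NGFR the slope on SOX10 was 0.69 ± 0.21 (95% interval 0.28 to 1.11, edgeR adjusted p = 0.0521). For CDH19 it was 0.46 ± 0.15 (0.16 to 0.75, adjusted p = 0.0701). Both lay so near the threshold that the choice of scaling or test decided the call. NGFR was called with DESeq2 size factors (edgeR adjusted p = 0.0432), and both were called with the DESeq2 test, at adjusted p = 0.0129 and 0.0401. Of 11 alternative settings NGFR was called in 5, with edgeR adjusted p from 0.00599 to 0.627 over the settings. CDH19 was called in 2 of the 11, with edgeR adjusted p from 0.0085 to 0.884. With the mitochondrial share in the fit the adjusted p was 0.236 for NGFR and 0.241 for CDH19. With 1 animal left out, CDH19 was called without 4x0025 (edgeR adjusted p = 0.0292) or Little_R (0.0402). NGFR was called without any 1 of 14 animals, 338, 389, 438, 4x0025, 4X0095, 4X0267, 4X0333, 4X0339, 4x523, 522, 554, 570, 676 and Little_R, with edgeR adjusted p from 0.0105 to 0.0497. S100B had a slope of −0.39 ± 0.34 on SOX10 (−1.06 to 0.29, adjusted p = 0.495), so an increase of the size seen for L1CAM lay outside its interval. A test of the interaction between SOX10 and extraction year called none of the 4 members, with edgeR adjusted p between 0.736 and 0.978. It called 1 gene of 15391 (0.0065%), 1061 had an unadjusted p under 0.05, and DESeq2 called 6.

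**Figure D2:**
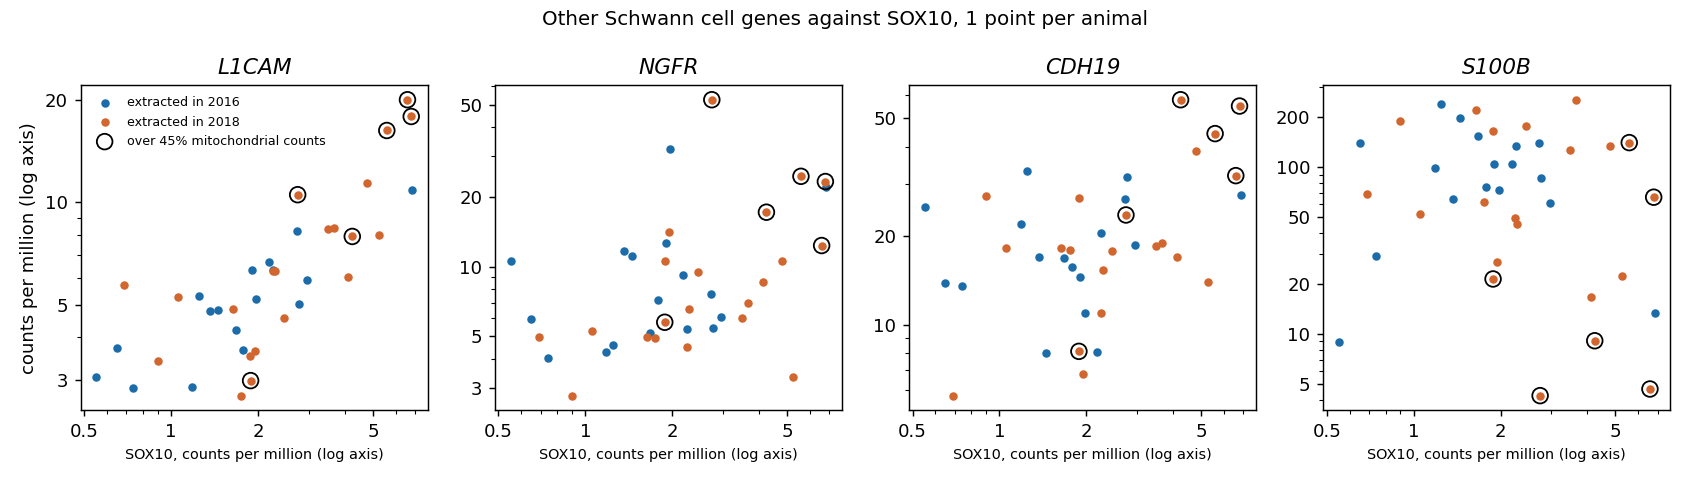
Levels of L1CAM, NGFR, CDH19 and S100B against that of SOX10, with 1 point per animal, both axes in CPM on log scales, blue for RNA extracted in 2016 and orange for 2018, and circles around the 6 animals with over 45% mitochondrial counts. L1CAM rises with SOX10 up to 20.1 CPM, whereas S100B is as low as 4.67 CPM in 529, one of the hearts richest in SOX10.

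**Figure D3:**
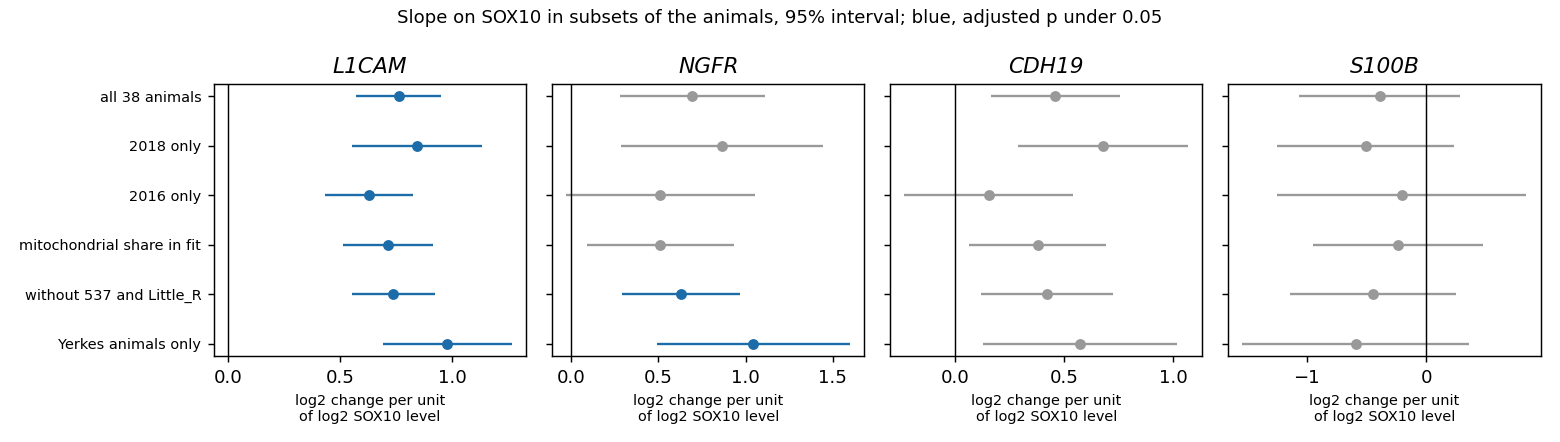
Slope of each gene on the SOX10 level (log2 change per log2 unit, with its 95% interval) in all 38 animals, in each extraction year, with the mitochondrial share in the fit, and without some animals; blue marks an adjusted p under 0.05. L1CAM is blue in every row, with 0.84 in 2018 and 0.63 in 2016, and NGFR is blue without 537 and Little_R and in the Yerkes animals.

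The other genes of the Schwann lineage rose with SOX10 in large part. Of 13 tested genes of this list 8 rose and none fell, with a median slope of 0.58 against −0.0054 over all genes (beside 2.46% of all genes that rose). FOXD3, a neural crest transcription factor, had the smallest p of all genes, with a slope of 1.399 ± 0.15 (edgeR adjusted p = 5.39e-07), although its mean level was only 0.322 CPM. ERBB3, the neuregulin receptor, rose by 0.93 ± 0.12. GPM6B (0.58 ± 0.11), TFAP2A (0.76 ± 0.15), GFRA3 and LGI4 were also among the genes that rose, of which GFRA3 lost its call without 529 or 549 and LGI4 without 4X0550 or 537. ADGRG6, INSC, FABP7 and CADM2 were not called, and neither was CNP, the most abundant gene of the list, with a slope of 0.10 ± 0.065. XKR4, SOX2 and POU3F1 did not pass the filter.

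Genes of myelin rose with SOX10 too. Of 10 tested 7 rose and none fell, and all 10 estimates were above 0, with a median of 0.84. Among the called genes were PMP2, a lipid-binding protein of myelin, at 1.11 ± 0.25, PRX, which encodes periaxin, at 0.83 ± 0.15 (edgeR adjusted p = 0.00195), and NCMAP, DRP2 and MAL, with slopes from 0.85 to 1.199. PMP22, the most abundant gene of the list at a mean of 66.0 CPM, rose by 0.39 ± 0.11, a call held in 31 of 38 fits with 1 animal left out, and NCMAP lost its call without 4X0550 or 529. MBP, GLDN and EGR2, the transcription factor of myelination, were not called, and MAG and CLDN19 did not pass the filter. MBP, PRX, DRP2, MAG and CLDN19 were highest in 4X0267. There PRX had 12.7 CPM against a median of 2.67 CPM, and DRP2 had 4.93 CPM against 0.633 CPM. That heart also held the highest level of the fat cell genes ADIPOQ (95.1 CPM), PLIN1 and CIDEC. Without 4X0267 all 7 myelin genes were still called, and the slopes of PRX and DRP2 were 0.72 and 0.80.

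None of the other genes of non-myelinating Schwann cells was called upward with SOX10. Of 4 tested, NCAM1, an adhesion molecule that heart muscle also makes, fell by 0.47 on the log2 scale (SE 0.14, edgeR adjusted p = 0.0400), a call held in 31 of 38 fits with 1 animal left out and lost with the mitochondrial share in the fit. SCN7A had a slope of 0.40 ± 0.16 (adjusted p = 0.129), and GFAP and GAP43 had estimates below 0 that were not called. In the axis of neurotrophins and glial growth factors, 3 of 15 genes rose and 1 fell. Those that rose were NTF3, which encodes neurotrophin 3 (0.73 ± 0.16), its receptor gene NTRK3 (1.02 ± 0.22), and GFRA1, a receptor subunit for the factor GDNF (0.76 ± 0.17). BDNF, another neurotrophin, fell by 0.75 on the log2 scale (SE 0.22, adjusted p = 0.0451), which held in 27 of those 38 fits and was lost both without 537 and Little_R and with the mitochondrial share in the fit. The 3 genes that rose were called in all 38 fits, and with the mitochondrial share 2 genes of the list rose. ERBB2, the partner of ERBB3, had 0.06 ± 0.093, and the ligand gene NRG1 had −0.41 ± 0.52.

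**Figure D4:**
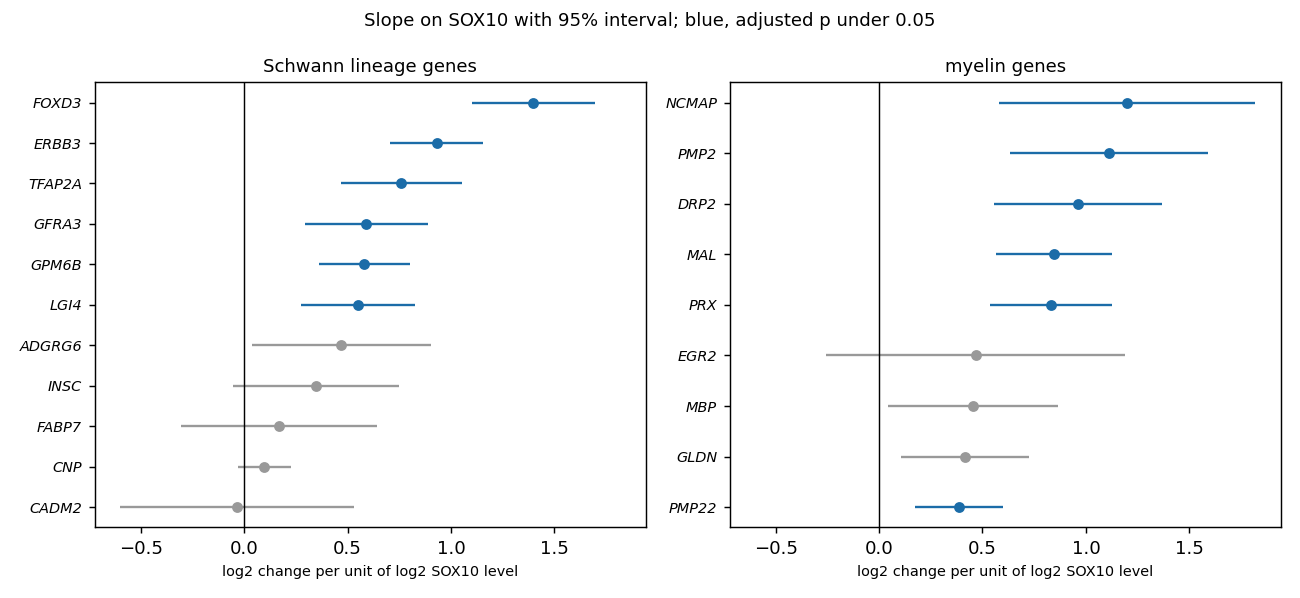
Slope on the SOX10 level (log2 change per log2 unit) with its 95% interval for 11 of the 13 tested Schwann lineage genes on the left and 9 of the 10 tested myelin genes on the right; blue marks an adjusted p under 0.05. FOXD3 at 1.399 is the steepest of those shown, and CADM2 is the one estimate below 0.

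Markers of other cell types were set beside these counts. PRPH, a filament gene of peripheral neurons, was the 1 called gene of 8 neuronal genes, with a slope of 1.02 ± 0.23 on SOX10, and lost its call without 549. The 10 other neuronal genes, among them TH and DBH of noradrenaline synthesis, did not pass the filter, and TH was listed at 0 in 5 animals. Of 8 fibroblast genes 1 rose (FBLN1, 0.77 ± 0.19), of 10 pericyte and smooth muscle genes 3 rose (ACTA2, MYH11 and NOTCH3), and of 9 fat cell genes 2 rose (CIDEC and PLIN1). Without 4X0550 no gene of these 3 lists was called, both fat cell genes also lost their calls without 4X0267, FBLN1 without 549, and 5 fibroblast genes were called without Little_R. In the Yerkes animals alone 6 of 8 fibroblast genes rose, with a median slope of 1.06 beside 0.85 for the Schwann lineage genes. So did 3 of 5 lymphocyte genes. In that selection 2458 genes were called over all, beside 647 with all animals. With the mitochondrial share in the fit no fibroblast, pericyte and smooth muscle, fat cell or atrial gene was called. With all animals, none of 8 cardiomyocyte, 7 endothelial, 7 macrophage, 6 lymphocyte, 4 mesothelial and 3 melanocyte genes was called. Of 7 atrial and conduction genes SLN and MYL4 rose, and both have their highest level in 549, where SOX10 is highest. Without 549 the slope of SLN was 0.06 and that of MYL4 −0.19. The part of these cell types in the relation of L1CAM and SOX10 was not tested.

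The Schwann lineage and myelin counts along SOX10 were set beside those from other selections. Without 537 and Little_R they were 8 of 13 and 7 of 10, as with all animals, and with the mitochondrial share in the fit they were 6 of 13 and 5 of 10. In the Yerkes animals alone they were 8 of 13 and 5 of 10. Within 2018 alone 2 of 9 and 3 of 9 tested genes were called, within 2016 alone 3 of 10 and 1 of 8, and all of these estimates were above 0. With 1 animal left out, the Schwann lineage count stayed between 7 and 9 of 13, and the myelin count between 5 (without 4X0550 or 529) and 8 of 10. Over all genes, 647 were called with all animals and 2458 in the Yerkes animals alone. With the mitochondrial share in the fit 135 were called, within 2018 alone 31 and within 2016 alone 10. With 1 animal left out, the number called over all genes ran from 183 without 4X0550 to 1524 without Little_R.

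L1CAM as the predictor gave a broader picture. SOX10 rose along it by 1.05 ± 0.14 (edgeR adjusted p = 3.49e-05), NGFR by 0.89 ± 0.21 (adjusted p = 0.00367) and CDH19 by 0.50 ± 0.16 (adjusted p = 0.0254), whereas S100B had −0.16 ± 0.36. These are 3 of 4 members, beside 24.9% of all genes called in either direction, 15% upward and 9.86% downward. Of the Schwann lineage genes 9 of 13 rose, led by GPM6B (0.87 ± 0.10), and of the myelin genes 6 of 10. All 8 fibroblast genes rose with L1CAM as well, among them DCN, a matrix proteoglycan, by 0.99 ± 0.18, and of 8 cardiomyocyte genes ACTN2 fell. Without 537 and Little_R, whose fibroblast genes summed to 5310 and 6192 CPM, the fibroblast count was 6 of 8, the Schwann lineage count 9 of 13 and the myelin count 3 of 10. The calls of ACTN2 and CDH19 (adjusted p = 0.0793) were lost. With the mitochondrial share in the fit these counts were 6 of 8, 8 of 13 and 3 of 10, ACTN2 was not called either, CDH19 had an adjusted p of 0.141 and NGFR one of 0.0533. Over all genes 1315 were called without 537 and Little_R and 1023 with the mitochondrial share, beside 3829 in the main fit. These 2 settings were chosen after seeing the data.

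NGFR moved with more genes than any other member: 46.7% of 15391 genes were called along it, 25% upward and 21.7% downward. L1CAM (0.43 ± 0.11, edgeR adjusted p = 0.00137) and SOX10 (0.43 ± 0.15, adjusted p = 0.0171) rose, which makes 2 of 4 members, beside the 25% of all genes called upward. CDH19 and S100B were not called. The call of SOX10 was lost with the mitochondrial share in the fit (adjusted p = 0.0659). Connective tissue genes rose with it: 7 of 8 fibroblast genes, such as COL1A1 (0.78 ± 0.17), and 5 of 10 pericyte and smooth muscle genes, led by PDGFRB, the receptor that marks pericytes (0.48 ± 0.067). Muscle genes fell: 7 of 8 cardiomyocyte genes, among them TTN, the giant sarcomere protein, by 0.82 on the log2 scale (SE 0.12), and 6 of 9 fat cell genes. Of the Schwann lineage genes 5 of 13 rose and of the myelin genes 1 of 10. Without 537 and Little_R 4185 genes were called instead of 7193, with 5 of 8 fibroblast genes, 3 of 10 pericyte and smooth muscle genes and 2 of 13 Schwann lineage genes upward, and 5 of 8 cardiomyocyte and 1 of 9 fat cell genes downward. With the mitochondrial share in the fit these counts were 6, 3, 3, 7 and 5, and 5188 of all genes were called.

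Few genes were called along CDH19, 134 (0.871%), with 0.63% upward and 0.24% downward. None of the 4 other members, none of 13 Schwann lineage genes and none of 10 myelin genes was among them. Estimates were above 0 for all 4 members, 10 of the 13 and 9 of the 10. Their medians were 0.41, 0.39 and 0.32, against 0.0015 over all genes. L1CAM had a slope of 0.46 ± 0.13 (edgeR adjusted p = 0.0611), ERBB3 one of 0.58 ± 0.15 (adjusted p = 0.0515) and SOX10 one of 0.55 ± 0.17 (adjusted p = 0.0715). At an unadjusted p under 0.05, 3813 genes were found, and ERBB3, INSC, FOXD3, GPM6B, TFAP2A and ADGRG6 were among them. DCN was the 1 called gene of 8 fibroblast genes, at 0.73 ± 0.18, and lost its call with the mitochondrial share in the fit. In that fit 1 gene in all was called, and 29 without 537 and Little_R.

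S100B had no positive call with any other member. Along it 1450 genes (9.42%) were called, of which 1054 fell (6.85%) and 396 rose (2.57%). NGFR fell by 0.28 on the log2 scale per log2 unit of S100B (SE 0.089, edgeR adjusted p = 0.0405), a call lost without 537 and Little_R (adjusted p = 0.327) and with the mitochondrial share in the fit (adjusted p = 0.196). SOX10 had −0.14 ± 0.097, L1CAM −0.07 ± 0.073 and CDH19 −0.02 ± 0.076, and none was called. Of 10 myelin genes 3 fell, EGR2 and PMP22 among them, and none rose, and of 13 Schwann lineage genes ADGRG6 fell, beside 6.85% of all genes that fell. Without 537 and Little_R 2 myelin and 0 Schwann lineage genes fell, and with the mitochondrial share in the fit 1 and 1. Over all genes these 2 fits called 193 and 278 in either direction, beside 1450 in the main fit. None of the 9 fat cell genes was called, and the heart with the most ADIPOQ, 4X0267, had 22.3 CPM of S100B. Of the 8 cardiomyocyte genes none was called either, although 7 estimates were above 0, with a median of 0.23. TYRP1, a gene of pigment synthesis, rose by 0.31 ± 0.081 (adjusted p = 0.0164), while PMEL and DCT of the same list were not called, and TYRP1 lost its call without 537 and Little_R and with the mitochondrial share in the fit.

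**Figure D5:**
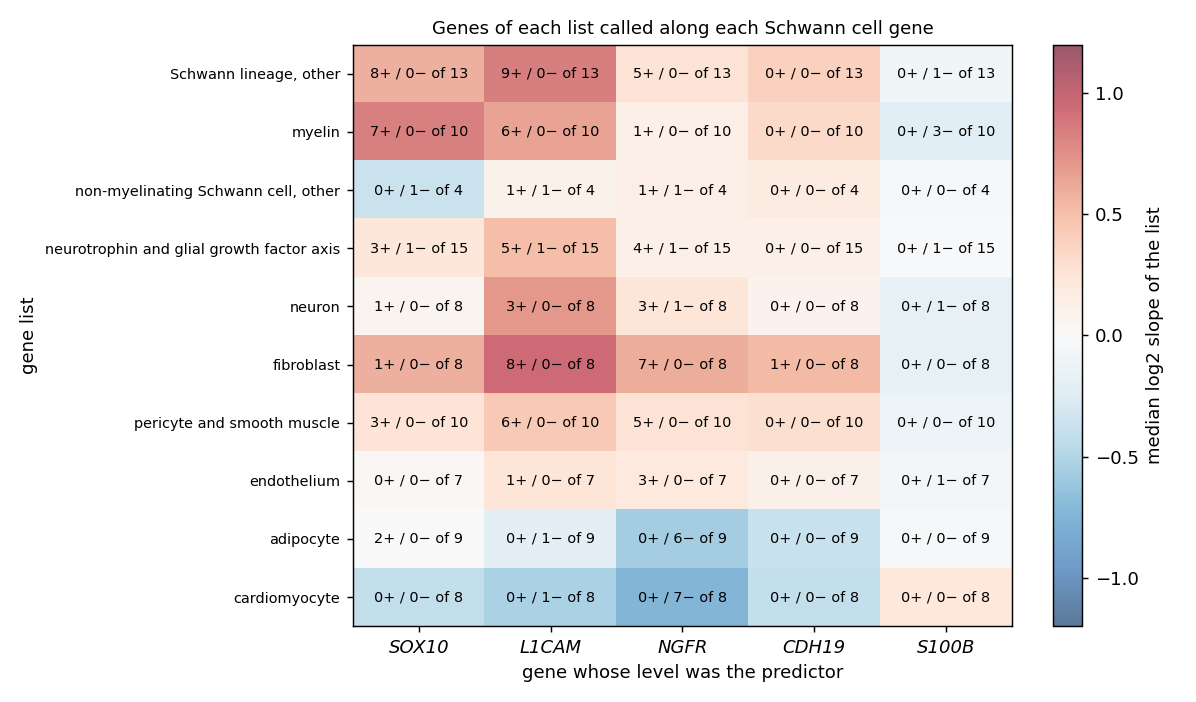
For 10 gene lists (rows) and the 5 genes used as predictors (columns), the number of tested genes called upward and downward, with the colour showing the median log2 slope of the list. Schwann lineage and myelin genes rise with SOX10 (8 of 13 and 7 of 10) and with L1CAM (9 of 13 and 6 of 10), while the column of S100B holds no upward call in these lists.

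The genes most like each member were ranked by Spearman's rho over the 38 hearts, after sex and extraction year were removed. Likeness was taken as a description, without a test. For SOX10 they included FOXD3 (0.89), ERBB3 (0.81), L1CAM (0.81) and GRIK3 (0.81), and for L1CAM they included SOX10 (0.81), GPM6B (0.80), FOXD3 (0.79) and SNTB1 (0.77). Thus SOX10 and L1CAM stood in each other's lists, and the first was the gene closest to L1CAM of all 15391. For CDH19 they were ZDHHC20 (0.79), SOX9 (0.73), ARHGEF26 (0.73), CYBRD1 (0.72) and KLF3 (0.68). For NGFR they were PDGFRB (0.81), CDC42EP1 (0.80), CNTNAP1 (0.79), CLIP2 (0.78) and PLCB3 (0.78). For S100B they were SYNPR (0.79), IRX6 (0.75), STAMBPL1 (0.64), ITGA9 (0.62) and GLT1D1 (0.61). No member was among the 5 nearest genes of CDH19, NGFR or S100B. Without the 2 hearts farthest from the median of the member, these values stayed between 0.55 and 0.88.

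Variability between animals was described for each member by its dispersion, the residual of the natural log of overdispersion from its trend on mean expression, where 0 marks a gene as variable as others of its level. All 5 members were above 0, as were 46.3% of all genes. S100B had 2.09 ± 0.20 (jackknife SE over 38 animals), rank 282 of 15392 from the most variable. NGFR had 1.34 ± 0.35 (rank 1204), CDH19 1.01 ± 0.23 (rank 2143), L1CAM 0.59 ± 0.28 (rank 3839) and SOX10 0.54 ± 0.20 (rank 4083). The value of SOX10 ran from 0.069, under a filter of 6 CPM in 1 or more animals, to 0.96 within 2016. L1CAM and SOX10 did not differ beyond their errors, and neither did NGFR and CDH19. Without 1 animal the dispersion of NGFR fell to as little as 1.01 (Little_R left out), while that of S100B stayed between 1.98 and 2.12. The medians of all 15 other lists were above 0, from 0.15 for the melanocyte to 2.73 for the atrial and conduction genes. They were 0.50 for 13 Schwann lineage genes, 0.71 for 10 myelin genes, 0.71 for 8 cardiomyocyte genes and 1.90 for 8 fibroblast genes.

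Some limits belong to the members themselves. In RefSeq's annotation of another assembly, NHGRI_mPanTro3-v2.0_pri, SOX10 overlaps POLR2F and L1CAM overlaps LOC101057533. The library kit does not mark strand, so reads in such overlaps cannot be told apart, and these levels are uncertain to that extent. S100B, CDH19 and NGFR overlap no other gene there. The rows of the members in the table of exons orthologous between human and chimpanzee were not analysed here, nor was any human sample, so no species comparison was made.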

How the data were processed

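Per the labels the authors extracted RNA with Trizol (the study's methods name a kit as well), prepared polyadenylated RNA with the Illumina TruSeq kit v2 and aligned reads with STAR (2.6.1b in the submitters' processing notes) to the chimpanzee genome Pan_tro_3.0, with Ensembl annotation. The notes also name GRCh38.p13. The deposited gene table holds the raw count per gene from STAR. A second deposited table holds raw counts on orthologous exons from featureCounts and was used for totals and an alternative. The normalized matrix, the human counts and 1 further chimpanzee were not used, 52 per-sample columns in all. Sex, age, infection notes, extraction date, RIN and center came from the sample table of the study. Replicates are separate animals, some of them related. Symbols from Ensembl identifiers were found for 18040 of 31373 rows.

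The gene count of each animal was filtered with filterByExpr (minimum count 10, by extraction year), scaled by TMM and fitted in edgeR 4.0.16 (quasi-likelihood test). Covariates were sex and, where not itself tested, extraction year. SE is the log2 estimate divided by the square root of F. Adjustment was by the Benjamini-Hochberg method over all genes tested, threshold 0.05. CPM uses the TMM library size, with 0.5 added on the log2 scale. Dispersion used negative binomial maximum likelihood and LOESS (span 0.75, degree 1). DESeq2 1.42.0 was an alternative. Other tools were R 4.3.3, Python 3.11.15 and matplotlib 3.10.9. Steps were tested on simulated data with known changes. With 37 reads, the fewest of any member in any library, counting error is 16.4%.

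The 5 members and 15 other gene lists were chosen with earlier results of these data known. The genes named are the members, the most abundant gene of each list and up to 4 of each list with the smallest p in a comparison, the 5 genes most like each member, and cardiomyocyte genes. Further genes of the lists are named to account for every member of a list, with their values known. No sequence of a member was used. A few genes of these lists and rankings are counted but not reported here by name.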

Additional observations from a re-analysis of the deposited data

Results flagged for a closer look

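CRHBP, which encodes a binding protein of corticotropin-releasing hormone, was the 1 gene whose slope on SOX10 differed between extraction years by a test of the interaction. The interaction was −2.74 ± 0.48 (log2 units per log2 unit of SOX10, 2018 minus 2016, edgeR adjusted p = 0.0226), at a mean level of 2.66 CPM. It is no member of the lists and was named after its values were seen.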

How the results depend on the processing

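No paired analysis was possible because each animal gave 1 library and the labels give a single group without shared replicate numbers. The cause of each change below was not tested, and some settings also have fewer animals or genes. Between extraction years 2433 genes were called, and 3727 with no filter on low counts (84.4% of them higher in 2018 against 70.4%, with the median of all genes at 0.14), 248 in Yerkes animals only (92.7% higher) and 366 with the mitochondrial share as covariate. Calls ran from 2046 to 2800 with 1 animal left out. NGFR reversed, to −0.16 without 537 and Little_R, −0.54 with the mitochondrial share and −0.034 without Little_R alone, and ran up to 0.48 (without 570) with 1 animal left out.

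The RIN slope called 0 genes, 184 with the DESeq2 test, 2 with no filter, 2 with the orthologous exon total as library size and 15 in the earlier extraction year only. The slope on SOX10 called 647 genes, 58.4% of them upward. It called 1422 with the DESeq2 test, 2458 in Yerkes animals only, 2520 with the orthologous exon total (92.9% upward), 31 in the later year only (90.3% upward), 10 in the earlier year only (all upward) and 135 with the mitochondrial share. With 1 animal left out it called from 183 (4X0550) to 1524 (Little_R), and it left 1.5 times the count also without 476 (406), 4x0025 (1145), 4X0354 (993), 529 (358), 537 (251), 549 (342), 558 (401) or MD_And (319). L1CAM was called on SOX10 in every one of these settings that could be run on the gene table. The interaction called 1 gene, 6 with the DESeq2 test, 45 with no filter, 0 in Yerkes animals, 2 with the orthologous exon total and 3 in the orthologous exon table.

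For the slopes on the other members, 2 settings were chosen after seeing the data, without 537 and Little_R and with the mitochondrial share. Calls fell from 1450 to 193 and 278 for S100B, from 134 to 29 and 1 for CDH19, from 3829 to 1315 and 1023 for L1CAM, and from 7193 to 4185 and 5188 for NGFR. With the mitochondrial share 2 estimates near 0 reversed, CDH19 along S100B to 0.019 and S100B along L1CAM to 0.061. A pseudocount of 0.05 CPM, also chosen after seeing the data, changed no call of a member on SOX10.

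The dispersion of SOX10 was 0.069 under a filter of 6 CPM in 1 or more animals and 0.96 in the earlier extraction year, against 0.54. With 1 animal left out it stayed between 0.46 and 0.57, and no other dispersion moved beyond its jackknife error. Levels per gene length, and the members in the orthologous exon table, were not run, because no exon length or row could be tied to a member. Counting error limits SOX10 most, since its lowest count was 37 reads.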
